A study of Mus musculus with 16 samples.

Results

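The complement system and the clotting cascade are sets of plasma proteins that the liver makes and secretes, and 44 genes that encode them were followed here by name in the livers of female mice. Of the 44, 43 were in the deposited counts table of 15119 genes and all 43 passed the filter on low counts, among 14434 genes tested. Cfd was the exception, with values in the second deposited table only. Poly(A) RNA was sequenced from 16 liver libraries. Mice were wild type (WT) or lacked Arglu1, a coregulator of transcription and splicing, in hepatocytes (LKO). Mice aged on chow for 9 months then stayed on it or received TD. 88137, a high-fat diet (HFD), over the next 12 weeks. The groups were WT on chow, LKO on chow, WT on HFD and LKO on HFD, with 4 libraries each. The labels name neither the promoter that drives the deletion nor the exons it removes, and leave the strain unstated. Nothing in them ties a library to an animal of its own, so p-values measure only how far these libraries spread, and that spread may be technical.

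Complement is triggered through C1q (classical pathway), through sugar-binding lectins or through spontaneous turnover of C3 (alternative pathway). All 3 routes cleave C3 and then C5, after which C5 to C9 assemble into a pore in the target membrane. Clotting runs through proteases that activate each other until thrombin cuts fibrinogen into fibrin, and plasmin later dissolves the clot. Hepatocytes make most of these proteins, while C1q and properdin come mainly from macrophages and other myeloid cells. In laboratory mice, components of the terminal pathway are known to be less abundant in the serum of females than of males.

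Libraries held 19142612 to 25120565 estimated counts. Arglu1 itself, the targeted gene, ran from 39.5 to 45.1 CPM (normalised read counts, scaled to library size) in WT on chow and 12.8 to 15.99 CPM in LKO on chow. On HFD the ranges were 40.3 to 43.9 and 13.4 to 16.7 CPM. Hepatocyte markers were abundant throughout: 8 genes led by Alb (albumin) summed to 93074 to 122960.1 CPM in WT on chow, 115928 to 129546 in LKO on chow, 68879.6 to 74615 in WT on HFD and 87173 to 103201 in LKO on HFD. LKO chow libraries 3 and 4 stood apart from libraries 1 and 2 of their group. In 25 of the 43 genes both were below libraries 1 and 2, and in 9 both were above. The same was not counted over all genes, so these counts describe the libraries and not a trait of the genes. Counts of calls on chow are therefore also given without libraries 3 and 4. The labels do not say that replicate numbers pair libraries. The 43 genes together took 4.42 to 4.63% of the normalised library in WT on chow, 3.26 to 3.87% in LKO on chow, 3.32 to 3.61% in WT on HFD and 3.43 to 3.71% in LKO on HFD.

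Levels differed over a wide range between genes. Compared per length, as TPM averaged over the 16 libraries, C3 was the most abundant member at 3205 TPM, followed by Fgg at 2674 TPM and Fga at 2266 TPM. F2 (prothrombin) stood at 1714 TPM and Plg (plasminogen) at 1526 TPM. C8a reached 116 TPM and C8b 66.2 TPM, and C6 was the least abundant of the 43 at 13.9 TPM. Everything that follows is in CPM, which compares libraries for the same gene but not genes with each other.

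LKO was compared with WT on chow to ask what loss of hepatocyte Arglu1 did to these genes. Clotting genes were lower by small amounts across much of the cascade, and C8a, C8b and C6 of the terminal complement pathway were higher by larger ones. Of 43 genes, 4 rose and 21 fell at an adjusted p below 0.05 (edgeR quasi-likelihood test, Benjamini-Hochberg adjustment over all genes tested), which is 58.1% of them beside 24.7% of all genes. In all genes 12.9% rose and 11.8% fell. Of the falls, 14 were among the 19 clotting genes, none of which rose, and 7 were among the 24 complement genes. The hepatocyte marker sum, led by Alb, was not lower in LKO on chow. Of its 8 genes, Cps1 and Hnf4a alone were called, both lower (-0.84, adjusted p = 0.00271 and -0.26, adjusted p = 0.0417). The log2 fold change was below 0 for 5 of these markers and above 0 for 3 (median -0.10), and 4 had an unadjusted p below 0.05. The part of hepatocyte content in the chow calls was not tested. Of 5 megakaryocyte and platelet markers 2 were tested, and their sum was 3.14 to 4.20 CPM in WT on chow and 7.79 to 13.3 in LKO, and 2.44 to 4.76 and 6.76 to 10.2 on HFD. Itga2b, the platelet integrin chain, rose in LKO on chow (1.59, adjusted p = 3.26e-05) and on HFD (1.31, adjusted p = 2.53e-04), and Pf4, platelet factor 4, was called on neither diet (0.62 and -0.04). The marker Ppbp went the other way in the second table. On chow it had 13, 8, 10 and 8 counts in WT and 1, 0, 7 and 3 in LKO, without overlap. On HFD it had 9, 17, 19 and 9 counts in WT and 3, 7, 10 and 3 in LKO, with overlap. Gp9 and Gp1bb had at most 5 counts in any library. The part of the platelet markers in the results was not tested. In bulk tissue, fewer cells of a type and less RNA per cell cannot be told apart. The median log2 fold change was -0.30 over the 43 and 0.02 over all genes. The 4 libraries of LKO lay entirely above those of WT for 4 genes and entirely below for 16, where 21.4% of all genes showed no overlap. Without LKO chow libraries 3 and 4 the count was 16 (3 rises and 13 falls, 37.2%), beside 16.2% of all genes, and 7 genes lay above and 21 below without overlap, beside 35.1% of all genes. Without libraries 1 and 2 it was 25 (3 and 22), beside 34.3% of all genes, with 6 above and 24 below beside 50.1%. A fit of the chow libraries alone called 16 (3 and 13), beside 15.4% of all genes.

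The same comparison on HFD, in other libraries, gave 9 rises and 5 falls (32.6%), beside 17.9% of all genes called, 10.3% higher and 7.57% lower. Complement genes made up 8 of the 9 rises, and 1 complement and 4 clotting genes fell. Libraries of LKO lay above those of WT for 9 genes and below for 8, with no overlap in 27.8% of all genes. A fit of the HFD libraries alone called 16 (37.2%), beside 25.7% of all genes. Limma voom called 20 (46.5%), beside 31.3% of all genes. Across both diets, C6, C8a, C8b and Mbl2 rose each time and C8g, F7, F11, F12 and Serpinc1 fell each time. A further 16 genes were called on chow alone and 5 on HFD alone, and 13 on neither diet. Between the HFD groups, the hepatocyte marker sum was higher in LKO, without overlap (mean 96239 beside 71923 CPM for WT). Of its 8 genes, 1 was called higher and 1 lower, with 3 log2 fold changes above 0 and 5 below. All 8 endothelial and all 5 bile duct markers tested lay below 0 on HFD, and none was called. The part of cell content in the HFD calls was not tested. The plot of genotype effects by role shows both diets side by side.

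**Figure D1:**
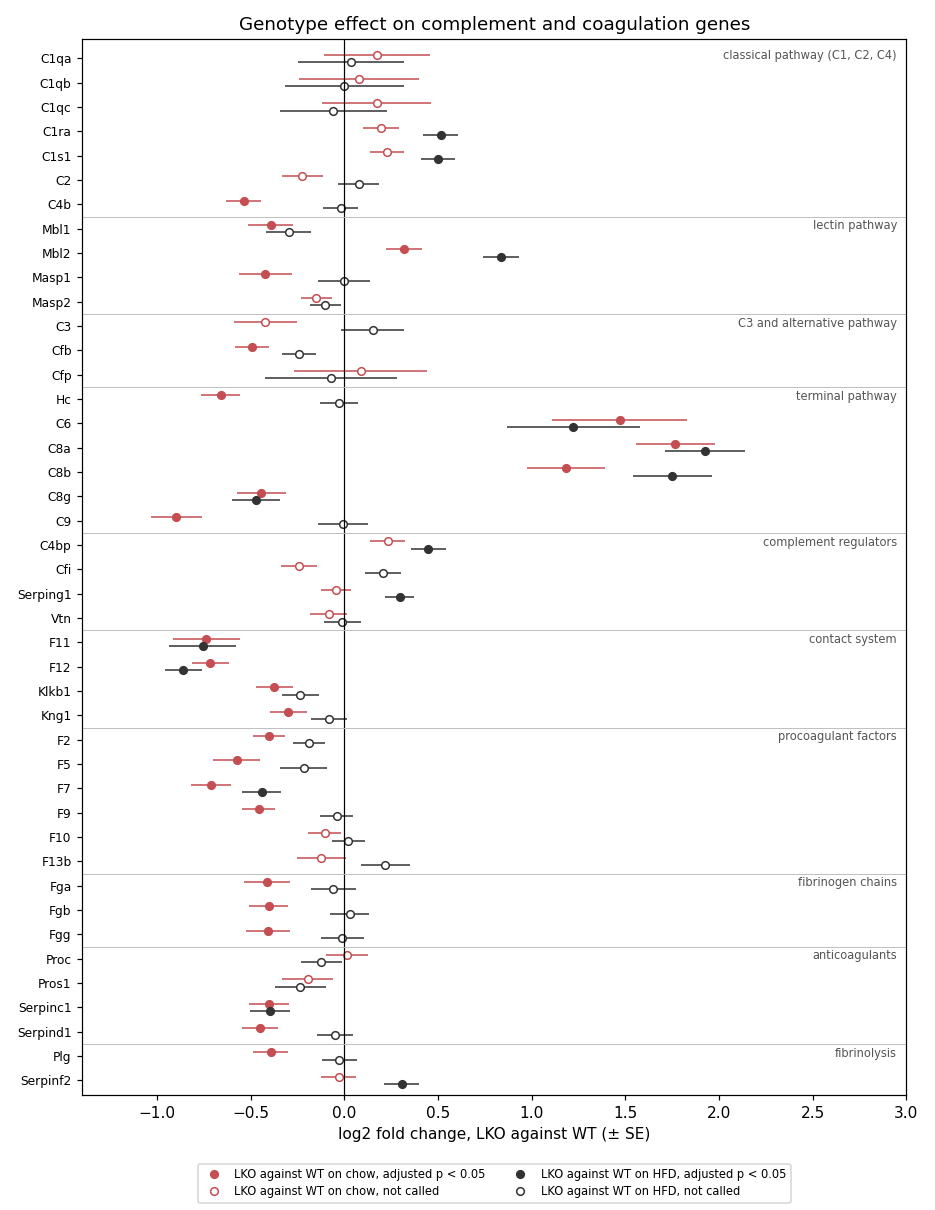
Fitted log2 fold change of LKO against WT (x axis, bars are ± SE) for the 43 genes tested (y axis), grouped by role, on chow (red) and on HFD (black). Filled points passed an adjusted p of 0.05 (edgeR). C8a, C8b and C6 lie far to the right on both diets, and the clotting genes from F11 down to Plg lie mostly left of 0 on chow.

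Among the genes of the classical pathway, C4b fell on chow and the protease pair C1ra and C1s1 rose on HFD. C4b encodes the C4 protein that C1s cleaves. On chow it read 1792, 1942, 1865 and 1697 CPM in WT and 1428, 1368, 1122 and 1105 CPM in LKO. On HFD the values were 1662, 1721, 1685 and 1633 CPM in WT and 1601, 1611, 1734 and 1663 CPM in LKO. LKO on chow was thus the low group, with no overlap with WT on the same diet (log2 fold change -0.54, SE 0.095, adjusted p = 5.18e-04), and on HFD the genotypes overlapped (log2 fold change -0.02, SE 0.095, adjusted p = 0.919). C4a, its close copy, was not analysed here, and the level of C4b is uncertain where the copies share reads.

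C1ra and C1s1 encode the proteases of the C1 complex and lie next to each other, 6901 bases apart on chromosome 6. On chow C1s1 averaged 515 ± 23.5 CPM in WT against 603 ± 43.4 CPM in LKO (SD, n = 4 each, as for all means), with no overlap. On HFD it read 449, 504, 502 and 472 CPM in WT and 765, 698, 609 and 650.1 CPM in LKO, without overlap (log2 fold change 0.50, SE 0.089, adjusted p = 7.17e-04). C1ra on HFD read 226, 229, 244 and 238 CPM in WT and 377, 345, 294 and 324 CPM in LKO, again without overlap (log2 fold change 0.51, SE 0.095, adjusted p = 9.78e-04). On chow neither passed the test (C1ra 0.19, adjusted p = 0.152, and C1s1 0.23, adjusted p = 0.0731). The difference of C1s1 on chow passed with DESeq2 (adjusted p = 0.0499), upper-quartile scaling (adjusted p = 0.038), a mean count of at least 50 (adjusted p = 0.0467) and without LKO chow library 2 (adjusted p = 0.0358). That of C1ra passed without libraries 3 and 4 (adjusted p = 0.0393). Their close copies C1rb and C1s2 had at most 5.35 and 4.01 counts in any library of the second table, and reads shared with them would leave C1ra and C1s1 uncertain. C2, the protease that joins C4 in the classical C3 convertase, was called on neither diet (-0.22 and 0.08).

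C1qa, C1qb and C1qc, which encode the chains of the recognition molecule C1q, were not called in any of the 5 comparisons, although limma voom called C1qb higher on HFD in LKO (adjusted p = 0.041), as did edgeR without LKO chow libraries 1 and 2 (adjusted p = 0.0363). Their summed level was 112, 199, 97.3 and 109 CPM in WT and 199, 188, 64.2 and 120.2 CPM in LKO on chow. The sums on HFD were 198, 170.1, 175 and 177 CPM in WT and 164, 158, 162 and 233 CPM in LKO on HFD. WT chow library 2 and LKO chow libraries 1 and 2 were high for their diet, and LKO chow library 3 was the lowest of all. The summed level of 14 macrophage marker genes followed the same order at the extremes, 342, 758, 410.4 and 335 CPM in WT and 698, 599, 185 and 335 CPM in LKO on chow, and 489 to 735 and 510.3 to 857 CPM on HFD. None of the 14 markers was called between genotypes. Only Gpnmb, which encodes a lysosomal glycoprotein, was called between diets, and it rose in both genotypes, by 2.41 on the log2 scale in WT (adjusted p = 6.09e-04) and by 1.29 in LKO (adjusted p = 0.0388).

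Cfp, properdin, the stabiliser of the alternative convertase, varied with C1q. It read 25.4, 54.1, 26.9 and 22.8 CPM in WT and 48.99, 43.8, 15.2 and 29.4 CPM in LKO on chow, and 43.1, 47.5, 38.1 and 46.2 CPM in WT and 34.2, 31.4, 34.00 and 66.5 CPM in LKO on HFD. Its highest library was LKO HFD library 4 and its lowest LKO chow library 3, as for the macrophage markers. Cfp was called in none of the 5 comparisons, with genotype effects of 0.09 (SE 0.35) on chow and -0.07 (SE 0.35) on HFD. The part of macrophage content in these values was not tested.

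**Figure D2:**
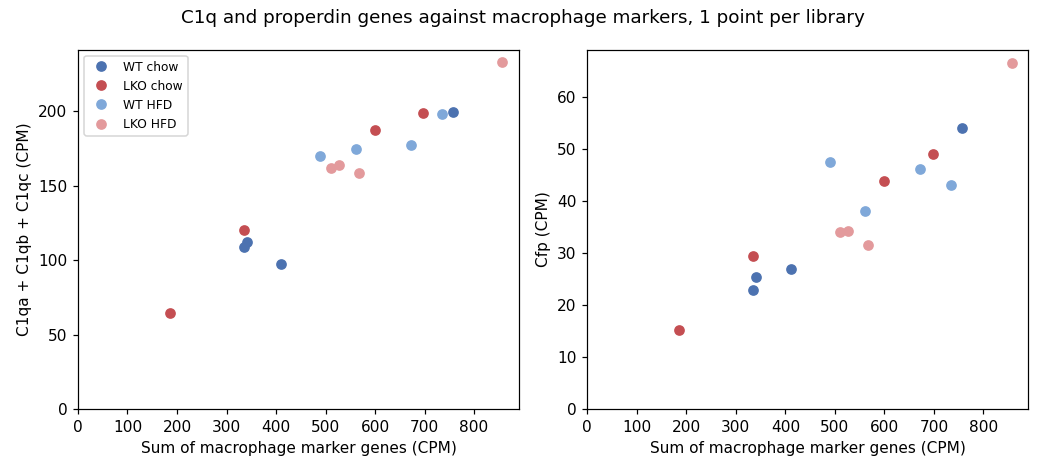
Summed CPM of C1qa, C1qb and C1qc (left) and CPM of Cfp (right) against the summed CPM of 14 macrophage marker genes, with 1 point per library coloured by group. Libraries of all 4 groups lie along 1 band, from LKO chow library 3 at the lower left to LKO HFD library 4 at the upper right.

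In the lectin pathway the 2 mannose-binding lectins moved in opposite directions on chow. Mbl2, the C form of the lectin, read 421, 388, 355 and 499 CPM in WT and 528, 521, 488 and 538 CPM in LKO on chow. The HFD values were 281, 269.7, 264 and 299 CPM in WT and 493, 491, 481 and 519 CPM in LKO. WT on HFD was the low group, below every other library. The rise in LKO was 1.78-fold on HFD (log2 fold change 0.83, SE 0.096, adjusted p = 9.72e-06) and smaller on chow (log2 fold change 0.32, SE 0.096, adjusted p = 0.0208), where WT library 4 overlapped LKO. That chow call was lost without WT library 2 or 3 or LKO library 4 (adjusted p 0.0518 to 0.0692), without LKO libraries 1 and 2 or 3 and 4 (adjusted p 0.0543 to 0.0578) and when only the chow groups were fitted (adjusted p = 0.113).

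Mbl1, the A form, fell on chow from 133 ± 21.7 to 101 ± 13.1 CPM (log2 fold change -0.39, SE 0.12, adjusted p = 0.0227) and stood at 132 ± 9.02 and 107 ± 10.8 CPM on HFD, where the groups did not overlap and edgeR missed the threshold (-0.30, adjusted p = 0.0977) while limma voom passed it (adjusted p = 0.00885), as did a fit of the HFD groups alone (adjusted p = 0.0239). Masp1, a protease that lectins carry, fell on chow from 166 ± 29.6 to 124 ± 24.5 CPM (log2 fold change -0.42, SE 0.14, adjusted p = 0.0365) and was not called on HFD (adjusted p = 0.993). Both chow calls were weak. The call of Mbl1 was lost without WT library 1 or 2 or LKO library 3 or 4 (adjusted p 0.0635 to 0.0753), and that of Masp1 without WT library 2 or 3 or LKO library 3 or 4 (adjusted p 0.0535 to 0.144). Both were also lost without LKO libraries 3 and 4 together (adjusted p 0.207 and 0.354) and in the fit of the chow groups alone (adjusted p 0.0862 and 0.103). Masp2, the protease that cleaves C4 and C2, was called on neither diet (-0.15 and -0.10).

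C3, on which the pathways converge, split into pairs of libraries within LKO on chow. It read 11492, 9582, 10254 and 8929 CPM in WT and 9325, 9289.6, 6085 and 5336 CPM in LKO on chow. On HFD the values were 6763, 5508, 6814 and 8145 CPM in WT and 8223, 7643, 6802 and 7565 CPM in LKO. LKO chow libraries 1 and 2 lay within the WT range and libraries 3 and 4 well below it. C3 was not called between genotypes (log2 fold change -0.42, SE 0.17, adjusted p = 0.0762 on chow and 0.15, adjusted p = 0.6 on HFD). Against WT on chow the log2 fold change was -0.82, adjusted p = 6.37e-04 without LKO libraries 1 and 2, and -0.11, adjusted p = 0.653 without libraries 3 and 4, so the value rests on which libraries are used. It was also called lower on chow without LKO library 1 alone (adjusted p = 0.0287), without LKO library 2 alone (adjusted p = 0.0279), with DESeq2 (adjusted p = 0.0351) and with limma voom (adjusted p = 0.00815).

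Cfb, factor B, the protease of the alternative convertase, fell on chow. It read 1306, 1151, 1166 and 1307 CPM in WT and 927, 955, 846 and 772 CPM in LKO, without overlap (log2 fold change -0.49, SE 0.091, adjusted p = 7.36e-04). On HFD the values were 1039.7, 1210.0, 1188 and 1170.3 CPM in WT and 972, 959.5, 1021 and 941 CPM in LKO, also without overlap, and the difference missed the threshold (-0.24, adjusted p = 0.0736). It passed with DESeq2 (adjusted p = 0.0184), limma voom (adjusted p = 0.00792), upper-quartile scaling (adjusted p = 0.047), the HFD groups alone (adjusted p = 0.0363), and without either pair of LKO chow libraries (adjusted p = 0.0417 and 0.045).

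Cfd, factor D or adipsin, cleaves factor B and is best known as a product of fat cells. In the second table it had 0, 0, 32 and 0 counts in the 4 WT libraries and 3, 1, 46 and 3 counts in the 4 LKO libraries on chow. On HFD it had 35, 20, 4 and 44 counts in WT and 204, 162, 59 and 183 counts in LKO. All 4 LKO libraries on HFD were above every other library, although the difference from WT on HFD missed the threshold in edgeR (log2 fold change 2.48, SE 1.04, adjusted p = 0.12) and in DESeq2 (2.47, adjusted p = 0.268), and passed it in limma voom (3.14, adjusted p = 0.004). Of 6 fat cell marker genes, Adig (adipogenin) was higher in LKO, with 15, 23, 8 and 15 counts in LKO and 0, 0, 0 and 9 in WT on HFD, where WT library 4 lay above LKO library 3. On chow Adig had 10, 5, 17 and 24 counts in LKO and 1, 1, 1 and 0 in WT, without overlap. The markers Adipoq (adiponectin) and Plin1 (perilipin) were at most 7.10 counts in LKO on HFD, where Adipoq had 4, 0, 0 and 1 counts and Plin1 7.10, 4.16, 3.09 and 4.02. Lep (leptin) was at 0 in all 4 of those libraries, Retn (resistin) had 7.09, 3.03, 3.01 and 0 counts and Cidea 0, 2, 16 and 0. The 3 highest libraries of Adipoq and Plin1 were LKO chow library 3 (47 counts of Adipoq), WT HFD library 4 (31) and WT chow library 3 (8), where Cfd had 46, 44 and 32 counts, each the highest of its group. The part of fat tissue in the values of Cfd was not tested.

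**Figure D3:**
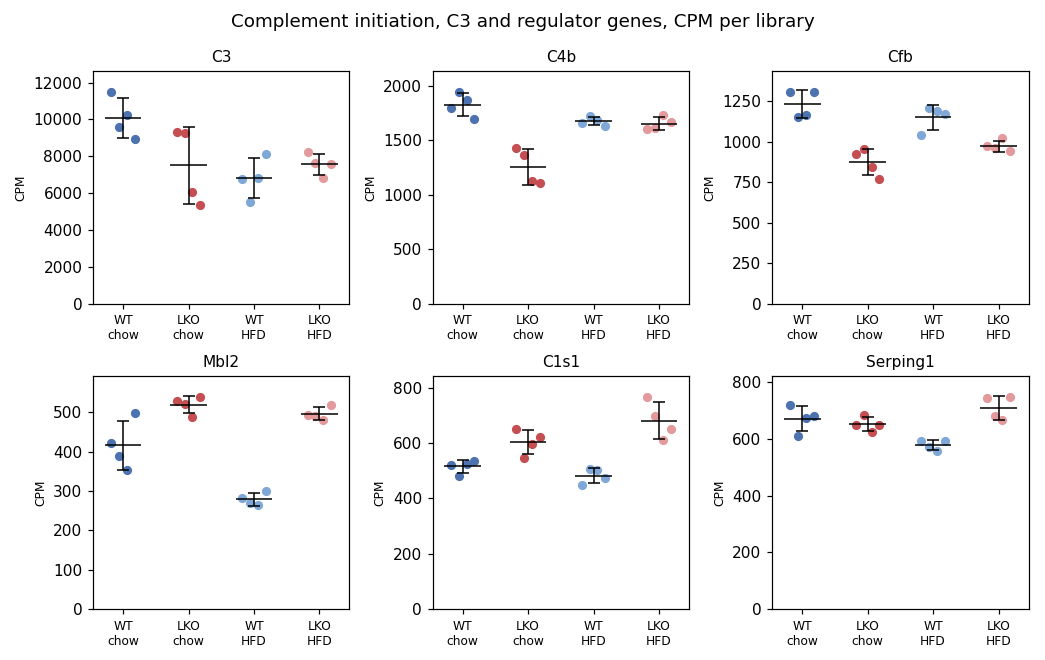
CPM per library (points), group mean (line) and SD (bars, n = 4) of C3, C4b, Cfb, Mbl2, C1s1 and Serping1 in the 4 groups, each y axis starting at 0. C4b and Cfb are lowest in LKO on chow, Mbl2 is lowest in WT on HFD, and C3 splits into 2 pairs of libraries in LKO on chow.

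On chow the terminal pathway held the largest rise (C8a) and the largest fall (C9) among the 43 genes. C8a and C8b encode the alpha and beta chains of C8, which joins the growing pore and enters the membrane, and their genes are neighbours on chromosome 4 (C8b from 104766317 to 104804548 on the plus strand and C8a from 104815679 to 104876398 on the minus strand, mm10/GRCm38), 11130 bases apart. Because they moved together, the 250 bases before each start are shown (RefSeq, GRCm38.p6, 5′ to 3′ on the gene's strand), with motif matches in capitals. The 4 motifs searched, on both strands, were GTTAAT, part of the HNF1 site, TTCNNNGAA, a STAT site, CAAAGTC, part of the HNF4 site, and TTGCNNAA, a C/EBP site. The window of C8a (chr4:104876399-104876648, minus strand) held a STAT match and an HNF1 match, and that of C8b (chr4:104766067-104766316, plus strand) an HNF1 match.
C8a: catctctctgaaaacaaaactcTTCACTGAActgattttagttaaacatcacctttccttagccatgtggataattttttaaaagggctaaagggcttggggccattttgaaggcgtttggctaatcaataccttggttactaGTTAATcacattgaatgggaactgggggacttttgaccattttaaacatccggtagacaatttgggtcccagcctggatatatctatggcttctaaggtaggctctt
C8b: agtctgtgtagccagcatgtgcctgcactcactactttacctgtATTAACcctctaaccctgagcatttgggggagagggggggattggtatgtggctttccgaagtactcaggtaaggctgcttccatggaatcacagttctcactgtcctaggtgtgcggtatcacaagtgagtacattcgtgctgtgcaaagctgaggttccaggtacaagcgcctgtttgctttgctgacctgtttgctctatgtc
The HNF1 letters occurred in 6.43% of all 32851 promoter windows of this length and the STAT letters in 7.02%, while HNF4 and C/EBP letters occurred in 3.84% and 9.56%. Of the 44 genes, 34 had a window (36 windows in all), of which 10 held the HNF1 letters, 6 the STAT letters, 1 the HNF4 letters and 8 the C/EBP letters.

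C8a read 82.3, 103, 82.5 and 73.99 CPM in WT and 262, 386, 257 and 258 CPM in LKO on chow. Under HFD it read 77.05, 62.8, 143 and 81.6 CPM in WT and 369, 298, 333 and 385 CPM in LKO. Every LKO library was above every WT library on both diets, with WT HFD library 3 the highest of WT and LKO chow library 2 apart from the rest of its group. The rise was 3.40-fold on chow (log2 fold change 1.77, SE 0.21, adjusted p = 1.65e-05) and 3.80-fold on HFD (log2 fold change 1.93, SE 0.21, adjusted p = 9.04e-06). C8b followed, with 43.4, 43.3, 52.2 and 35.3 CPM in WT and 94.5, 115, 81.6 and 104 CPM in LKO on chow. On HFD it had 26.1, 23.6, 48.2 and 33.6 CPM in WT and 133, 95.8, 83.1 and 131 CPM in LKO. Its groups did not overlap either, and it rose 2.27-fold on chow (log2 fold change 1.18, SE 0.21, adjusted p = 6.17e-04) and 3.37-fold on HFD (log2 fold change 1.75, SE 0.21, adjusted p = 2.31e-05). The ratio of C8a to C8b counts was 1.58 to 2.38 in WT and 2.48 to 3.35 in LKO on chow, and 2.42 to 2.96 and 2.77 to 4.01 on HFD.

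C8g encodes the gamma chain of C8, a lipocalin from an unrelated gene on chromosome 2, and it fell. It read 365, 361, 278 and 384 CPM in WT and 223, 212, 288 and 298 CPM in LKO on chow, overlapping through WT library 3. The HFD libraries read 241, 315, 275 and 275 CPM in WT and 198, 197, 180.4 and 224 CPM in LKO, without overlap. The log2 fold change was similar in size on both diets (-0.44, SE 0.13, adjusted p = 0.0175 on chow and -0.47, SE 0.13, adjusted p = 0.0159 on HFD). The chow call was lost without WT library 4 (adjusted p = 0.0537), without LKO libraries 1 and 2 (adjusted p = 0.159) and in the chow groups alone (adjusted p = 0.0767). The HFD call was lost without WT library 2 or LKO library 3 (adjusted p 0.0517 to 0.0521).

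C6, which binds C5b at the first step of pore assembly, rose from a low level. It read 8.03, 19.5, 13.1 and 6.95 CPM in WT and 28.1, 34.5, 26.6 and 43.1 CPM in LKO on chow, without overlap (log2 fold change 1.47, SE 0.36, adjusted p = 0.00843). On HFD it read 18.7, 10.4, 12.2 and 16.3 CPM in WT and 26.4, 16.95, 50.8 and 40.3 CPM in LKO, where LKO library 2 fell within the WT range (log2 fold change 1.22, SE 0.36, adjusted p = 0.0275). The chow call was lost without LKO libraries 3 and 4 together (adjusted p = 0.0568). The HFD call was lost without WT library 2, 3 or 4 or LKO library 3 or 4 (adjusted p 0.0511 to 0.0874) and with a replicate block (adjusted p = 0.0669).

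Hc, the gene of C5, and C9, the last component, which polymerises into the pore, fell on chow and were not called on HFD. Hc read 771, 832, 913 and 729 CPM in WT and 576, 577, 457 and 442 CPM in LKO on chow, without overlap (log2 fold change -0.66, SE 0.10, adjusted p = 1.58e-04). The values on HFD were 594, 645, 657 and 636 CPM in WT and 652, 615, 595 and 619.7 CPM in LKO, and the genotypes overlapped (-0.03, adjusted p = 0.89). C9 read 149, 174, 156 and 163 CPM in WT and 88.5, 106, 71.5 and 79.3 CPM in LKO on chow, all LKO libraries being lower (log2 fold change -0.90, SE 0.14, adjusted p = 1.16e-04). On HFD C9 read 139, 177, 191 and 169 CPM in WT and 140.2, 146, 197 and 188 CPM in LKO (-0.01, adjusted p = 0.976). LKO on chow held the 4 lowest libraries of C9. Without LKO chow libraries 3 and 4 the log2 fold change on chow was -0.49, adjusted p = 0.00398 for Hc and -0.73, adjusted p = 0.00385 for C9.

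**Figure D4:**
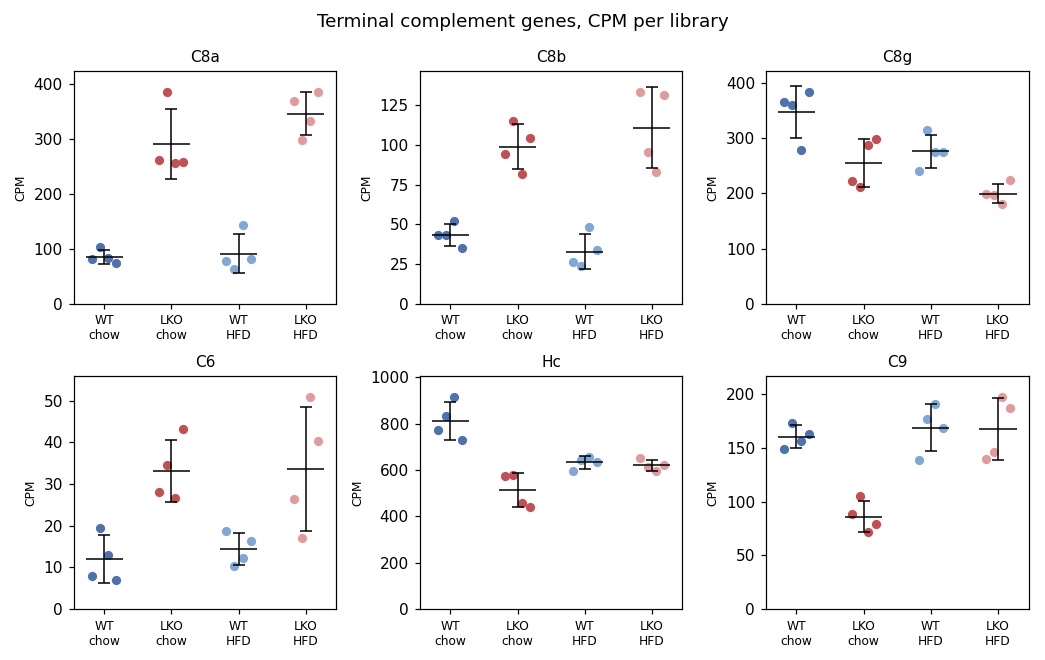
CPM per library (points), group mean (line) and SD (bars, n = 4) of the 6 terminal pathway genes, each y axis starting at 0. C8a, C8b and C6 are higher in LKO on both diets, C8g is lower on both, and Hc and C9 are lowest in LKO on chow.

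Between genotypes, the complement regulators C4bp and Serping1 were higher in LKO on HFD, and no regulator passed the main test on chow. C4bp, a cofactor for the breakdown of activated C4, stood at 434 ± 40.3 CPM in WT on chow and 509 ± 22.98 CPM in LKO on chow (0.23, adjusted p = 0.0814). On HFD it read 365, 433, 450.4 and 397 CPM in WT and 554, 526, 625 and 541 CPM in LKO, without overlap (log2 fold change 0.45, SE 0.094, adjusted p = 0.00254). It was called on chow as well without WT chow library 3 (adjusted p = 0.0378) or with upper-quartile scaling (adjusted p = 0.0407). Serping1, the C1 inhibitor, which also blocks factor XII and kallikrein, read 592, 570.0, 558 and 593 CPM in WT and 745, 681, 665 and 747 CPM in LKO on HFD, again without overlap (log2 fold change 0.29, SE 0.079, adjusted p = 0.0148). Its call was lost without LKO library 1 or 4 (adjusted p 0.0525 to 0.0529), and on chow the difference was -0.04 (adjusted p = 0.747). Cfi, the protease that cuts C3b and C4b, was not called in either genotype comparison (-0.24 on chow and 0.21 on HFD, where LKO lay above WT without overlap). It was called lower on chow without WT library 2 (adjusted p = 0.0499), without LKO library 2 (adjusted p = 0.0191), without LKO libraries 1 and 2 together (adjusted p = 0.00357), with DESeq2 (adjusted p = 0.0187) and with limma voom (adjusted p = 0.0143). On HFD limma voom called it higher (adjusted p = 0.0368). Vtn, vitronectin, which blocks pore insertion, was called on neither diet (-0.08 and -0.01).

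All 4 contact system genes fell on chow, and F12 and F11 also fell on HFD. F12 (factor XII) starts the contact pathway. It read 469, 435, 394 and 518 CPM in WT and 252, 252, 299 and 304 CPM in LKO on chow, and 408, 446, 451 and 429 CPM in WT and 220.1, 229.5, 263 and 243 CPM in LKO on HFD. No LKO library reached the lowest WT library on either diet, and the level was 1.64-fold lower on chow (log2 fold change -0.72, SE 0.1, adjusted p = 5.65e-05) and 1.81-fold lower on HFD (log2 fold change -0.86, SE 0.10, adjusted p = 1.09e-05). F11 (factor XI), which activated factor XII cleaves, read 51.1, 40.4, 53.9 and 35.4 CPM in WT and 26.3, 18.7, 25.7 and 37.9 CPM in LKO on chow. Under HFD its values were 42.03, 35.9, 46.8 and 32.8 CPM in WT and 21.6, 24.6, 25.03 and 22.1 CPM in LKO. LKO library 4 lay within the WT range on chow (log2 fold change -0.74, SE 0.18, adjusted p = 0.0061), and on HFD the groups did not overlap (log2 fold change -0.76, SE 0.18, adjusted p = 0.00678).

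Klkb1, plasma prekallikrein, lies 4657 bases from F11 on chromosome 8. On chow it fell from 347 ± 27.8 to 268 ± 20.97 CPM (log2 fold change -0.37, SE 0.097, adjusted p = 0.00932), a call lost without LKO libraries 3 and 4 (adjusted p = 0.0539), and on HFD it stood at -0.23 (adjusted p = 0.108), and was called there without WT HFD library 2 (adjusted p = 0.0403) and with limma voom (adjusted p = 0.0198). Kng1, kininogen, the cofactor that carries prekallikrein and factor XI, fell on chow from 2096 ± 202 to 1703 ± 183 CPM (log2 fold change -0.30, SE 0.098, adjusted p = 0.0331). Its call was lost without any 1 of the chow libraries other than WT library 2 and LKO library 4 (adjusted p 0.0502 to 0.091), without LKO libraries 1 and 2 (adjusted p = 0.178), in the chow groups alone (adjusted p = 0.152), and under limma voom (adjusted p = 0.0867) and upper-quartile scaling (adjusted p = 0.0926). Reads of Kng1 may be shared with its close copy Kng2, which fell on chow too (-0.50, adjusted p = 0.00102).

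Of 6 procoagulant factors, F2, F5, F7 and F9 fell on chow and F7 alone on HFD. F7 (factor VII) starts clotting together with tissue factor. It read 143, 109, 116 and 134 CPM in WT and 77.2, 68.5, 80.9 and 79.8 CPM in LKO on chow, and 97.5, 107, 116 and 123 CPM in WT and 93.2, 76.3, 74.5 and 81.99 CPM in LKO on HFD. The genotypes did not overlap on either diet (log2 fold change -0.71, SE 0.11, adjusted p = 1.05e-04 on chow and log2 fold change -0.44, SE 0.11, adjusted p = 0.00683 on HFD). F10, factor X, lies 1498 bases downstream of F7 on chromosome 8 and was called on neither diet, at -0.10 (SE 0.089) on chow and 0.02 (SE 0.089) on HFD.

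F2 encodes prothrombin, the precursor of thrombin. It read 2034, 1759, 1949 and 2159.8 CPM in WT and 1578, 1580.1, 1446 and 1378 CPM in LKO on chow, and 1587, 1734, 1754 and 1669 CPM in WT and 1473, 1460.2, 1472 and 1513 CPM in LKO on HFD. LKO was below WT without overlap on both diets, and the difference passed the test on chow (log2 fold change -0.40, SE 0.087, adjusted p = 0.00257) but not on HFD (log2 fold change -0.19, SE 0.086, adjusted p = 0.147), where DESeq2 and limma voom called it (adjusted p = 0.0455 and 0.0289). F9 (factor IX) fell on chow from 190.1 ± 15.7 to 138 ± 14.5 CPM (log2 fold change -0.46, SE 0.086, adjusted p = 8.97e-04), and F5, the cofactor factor V, from 586 ± 48.1 to 393 ± 74.3 CPM (log2 fold change -0.57, SE 0.13, adjusted p = 0.00295). On HFD they stood at -0.04 and -0.22. The chow call of F5 was lost without LKO libraries 3 and 4 (adjusted p = 0.0579). F13b, the carrier subunit of the fibrin-crosslinking factor XIII, was called on neither diet (-0.12 and 0.22), and on chow it passed without LKO libraries 1 and 2 (adjusted p = 0.0214).

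The 3 fibrinogen chains fell by like amounts on chow. Fga, Fgb and Fgg lie side by side on chromosome 3, and each protein chain needs the others for secretion. For comparison, the 250 bases before each RefSeq start are shown with the same motifs in capitals. Fga (chr3:83025903-83026152, plus strand) and Fgb (chr3:83049864-83050113, minus strand) each held a STAT, a C/EBP and an HNF1 match. Fgg (chr3:83007474-83007723, plus strand) held none of these letters. GENCODE M21 starts Fga at 83026076, inside its window. By that annotation the HNF1 match of Fga, from base 208 of the window, lies within the gene.
Fga: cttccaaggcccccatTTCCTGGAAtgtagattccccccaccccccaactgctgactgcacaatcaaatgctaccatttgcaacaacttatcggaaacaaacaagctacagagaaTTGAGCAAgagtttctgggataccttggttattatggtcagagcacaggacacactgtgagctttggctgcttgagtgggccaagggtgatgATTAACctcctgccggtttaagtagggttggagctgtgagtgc
Fgb: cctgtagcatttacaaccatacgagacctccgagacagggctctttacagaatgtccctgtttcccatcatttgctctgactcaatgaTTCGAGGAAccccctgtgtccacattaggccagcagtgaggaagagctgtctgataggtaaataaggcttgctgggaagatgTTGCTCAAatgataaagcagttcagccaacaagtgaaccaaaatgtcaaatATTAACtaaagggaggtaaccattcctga
Fgg: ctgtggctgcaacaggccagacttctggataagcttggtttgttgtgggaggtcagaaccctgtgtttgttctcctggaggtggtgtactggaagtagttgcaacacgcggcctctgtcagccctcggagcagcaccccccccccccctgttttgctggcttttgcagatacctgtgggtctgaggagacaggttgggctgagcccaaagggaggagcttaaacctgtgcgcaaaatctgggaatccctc
Fga read 3791, 4989.6, 4042 and 4021 CPM in WT and 3415, 3550.3, 2827 and 2854 CPM in LKO on chow. On HFD its values were 3187, 2695, 3276 and 2843 CPM in WT and 2588, 2683, 2873 and 3379 CPM in LKO. WT on chow was the high group, above all other libraries, and the other 3 groups overlapped. The log2 fold change on chow was -0.41 for Fga (SE 0.12, adjusted p = 0.0185), -0.40 for Fgb (SE 0.10, adjusted p = 0.00889) and -0.41 for Fgg (SE 0.12, adjusted p = 0.017). On HFD the chains stood at -0.06, 0.03 and -0.01. Over all 16 libraries the ratio of Fga to Fgb counts stayed between 0.993 and 1.22, and that of Fgg to Fgb between 0.852 and 0.940.

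The chow calls of the fibrinogen chains were fragile. Fga lost its call without WT library 2 or LKO library 3 or 4 (adjusted p 0.0572 to 0.0658) and Fgg without WT library 2 or LKO library 3 (adjusted p 0.0549 to 0.0651). Without LKO libraries 3 and 4 together the adjusted p was 0.205 for Fga, 0.112 for Fgb and 0.19 for Fgg. In the chow groups alone it was 0.068 for Fga and 0.061 for Fgg.

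**Figure D5:**
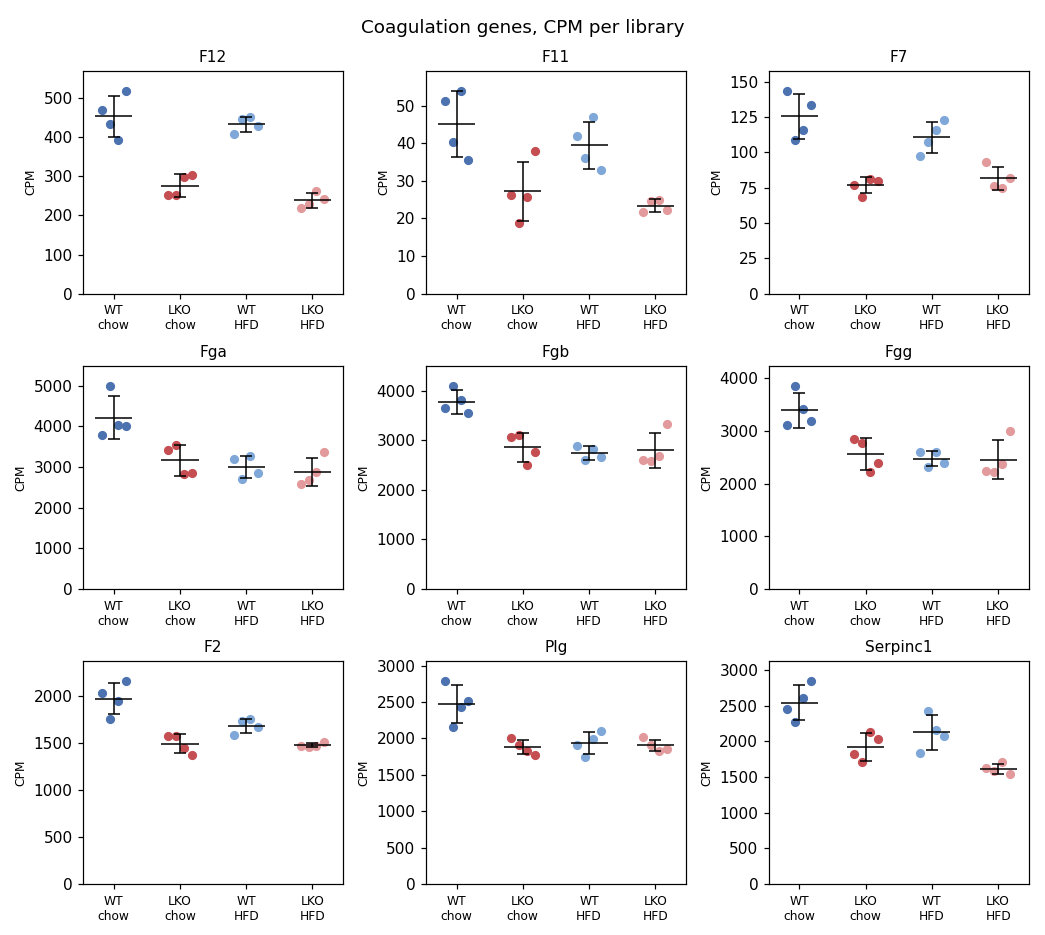
CPM per library (points), group mean (line) and SD (bars, n = 4) of 9 clotting genes, each y axis starting at 0. F12, F11 and F7 are lower in LKO on both diets, and for the fibrinogen chains and Plg the 4 WT chow libraries lie above all other groups.

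Serpinc1, antithrombin, which inhibits thrombin and factor X, fell on both diets. It read 2448, 2273, 2607 and 2842 CPM in WT and 1828, 1706, 2133 and 2033 CPM in LKO on chow, and 1839, 2431, 2166 and 2078 CPM in WT and 1625, 1586, 1708 and 1547 CPM in LKO on HFD. The groups did not overlap on either diet (log2 fold change -0.40, SE 0.11, adjusted p = 0.01 on chow and log2 fold change -0.40, SE 0.11, adjusted p = 0.0137 on HFD). Its chow call was lost without LKO libraries 1 and 2 (adjusted p = 0.0724) and in the chow groups alone (adjusted p = 0.0588). Serpind1, heparin cofactor II, another thrombin inhibitor, fell on chow from 569.9 ± 53.99 to 417 ± 43.3 CPM (log2 fold change -0.45, SE 0.095, adjusted p = 0.00233) and stood at -0.05 on HFD. Proc (protein C) and its cofactor Pros1 (protein S), which inactivate factors V and VIII, were called on neither diet, at 0.02 and -0.20 on chow and -0.12 and -0.24 on HFD. Without LKO chow libraries 1 and 2, Pros1 was lower on chow (adjusted p = 0.00388), and limma voom called it lower on HFD (adjusted p = 0.0457).

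Plg encodes plasminogen, the precursor of the fibrin-degrading protease plasmin. It read 2784, 2155, 2436 and 2510.3 CPM in WT and 2002, 1915, 1832 and 1776 CPM in LKO on chow, and 1909, 1747, 1999 and 2106 CPM in WT and 2014, 1909, 1829.9 and 1862 CPM in LKO on HFD. The 4 WT chow libraries were above every other library (log2 fold change -0.39, SE 0.095, adjusted p = 0.00559), and on HFD the genotypes overlapped (-0.03, adjusted p = 0.884). The chow call was lost without LKO libraries 3 and 4 (adjusted p = 0.0599) and in the chow groups alone (adjusted p = 0.0515). Serpinf2, the plasmin inhibitor, was called between genotypes on HFD and not on chow. On HFD it read 625, 554, 638 and 663 CPM in WT and 790.1, 773, 749 and 755 CPM in LKO, without overlap (log2 fold change 0.31, SE 0.094, adjusted p = 0.0291). This call was lost without any 1 of the HFD libraries other than WT library 4 and LKO library 3 (adjusted p 0.0541 to 0.0914), and on chow the difference was -0.03.

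The diets were then compared within each genotype. In WT, 6 of 43 genes fell on HFD and none rose, where 2.04% of all genes were called (0.97% higher and 1.07% lower). Libraries did not overlap for 13 genes, all lower on HFD, beside 9.51% of all genes. Mbl2 fell (log2 fold change -0.58, SE 0.096, adjusted p = 0.00318), as did Fgb (log2 fold change -0.46, SE 0.10, adjusted p = 0.0285), Fga (log2 fold change -0.49, SE 0.12, adjusted p = 0.0447), Kng1 (log2 fold change -0.45, SE 0.098, adjusted p = 0.0234), Serpinf2 (log2 fold change -0.42, SE 0.094, adjusted p = 0.0249) and Cfi (log2 fold change -0.37, SE 0.095, adjusted p = 0.049). Fgg stood at -0.45 (adjusted p = 0.0531) and C3 at -0.56 (adjusted p = 0.0945), both with WT on HFD entirely below WT on chow. Fgg was called without LKO chow library 1, 2 or 3 or LKO HFD library 4 (adjusted p 0.0392 to 0.0495), and Plg without WT chow library 2 (adjusted p = 0.0279). C3 was called lower with DESeq2 (adjusted p = 0.0207), without LKO chow libraries 1 and 2 (adjusted p = 0.0149) and without 3 and 4 (adjusted p = 0.0156). Hc was called lower with DESeq2 (adjusted p = 0.00918), limma voom (adjusted p = 0.0425), and without either pair of LKO chow libraries (adjusted p = 0.0216 and 0.028). DESeq2 also called F2, Fgg, Plg, Serping1 and Vtn lower, and limma voom Fgg, Plg and Vtn. The median over the 43 genes was -0.14 and over all genes 0.01.

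Of these 6 calls, that of Mbl2 held in every alternative run. Every other call ended when 1 of several libraries was left out. Fgb lost its call without WT chow library 2 or 3 or any 1 of the WT HFD libraries (adjusted p 0.0515 to 0.0763). Kng1 did so without WT chow library 3 or 4 or WT HFD library 1, 3 or 4 (adjusted p 0.0616 to 0.0724), and Serpinf2 without WT chow library 1 or WT HFD library 1, 2 or 3 (adjusted p 0.0588 to 0.079). Fga was lost without any 1 of the 8 WT libraries or LKO HFD library 1, 2 or 3 (adjusted p 0.0508 to 0.115). Cfi was lost without any 1 of the WT libraries other than WT chow library 2, and without any 1 of the LKO HFD libraries (adjusted p 0.0603 to 0.12). Leaving out a single library took the count to between 1 and 7, where 155 to 359 of all genes were called. The count was 1 without WT HFD library 1 or 3 and 2 without WT chow library 3 or WT HFD library 2 or 4. It was 3 without WT chow library 1 or 4. A replicate block left 3 calls (beside 1.54% of all genes) and a fit of the WT groups alone 2 (beside 1.8%). DESeq2 gave 13 (beside 4.87%) and limma voom 10 (beside 3.36%), all lower. The summed level of 8 hepatocyte markers also differed between the diets in WT, as given above. In LKO this sum was lower on HFD too, at 87173 to 103201 CPM beside 115928 to 129546 CPM on chow, without overlap. Of the 8, Alb fell in WT (-0.74, adjusted p = 0.00179), as did Hnf4a (-0.36, adjusted p = 0.0458). In LKO none was called, although 5 of the 8 had an unadjusted p below 0.05, beside 4 in WT. The log2 fold change in LKO was below 0 for 6 markers, the lowest at -0.90, and above 0 for 2. The part of hepatocyte content in the 6 calls in WT was not tested.

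In LKO, 2 of 43 genes rose on HFD and none fell, beside 2.22% of all genes called (1.14% higher and 1.07% lower). C9 rose 1.95-fold (log2 fold change 0.96, SE 0.14, adjusted p = 0.0018), and the LKO libraries on HFD lay entirely above those on chow. C4b rose as well (log2 fold change 0.40, SE 0.095, adjusted p = 0.0361). Libraries did not overlap for 4 genes that were higher and 2 that were lower, where 10.2% of all genes showed no overlap. The C4b call was lost without LKO chow library 3 or 4, any 1 of the LKO HFD libraries, or WT HFD library 3 or 4 (adjusted p 0.0506 to 0.137), without LKO chow libraries 3 and 4 together (adjusted p = 0.287), in the LKO groups alone (adjusted p = 0.121) and with a replicate block (adjusted p = 0.0584). The C9 call held in every alternative run, with 0.79, adjusted p = 0.0198 without LKO chow libraries 3 and 4. Without LKO chow libraries 1 and 2, 16 genes were called, 10 higher and 6 lower (37.2%), beside 18.9% of all genes. Limma voom on all libraries gave the same numbers, beside 14.2% of all genes. DESeq2 on all libraries called 3 (6.98%), beside 5.89% of all genes, with F9 added as higher (0.33, adjusted p = 0.00499). In edgeR F9 was called higher without LKO chow library 2 (adjusted p = 0.017).

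Whether the genotype effect differed between the diets was tested with the interaction, which uses the same 16 libraries as the comparisons above. None of the 43 genes passed in edgeR, where 0.0208% of all genes did (0.00693% higher and 0.0139% lower). At an unadjusted p below 0.05 there were 16 of 43 (37.2%), and 8.75% of all genes. The median interaction was 0.27 over the 43 and -0.02 over all genes, and 33 of 43 were above 0, that is, less negative or more positive on HFD. DESeq2 called 5 (11.6%), all above 0, beside 0.456% of all genes. They were Hc (0.65, adjusted p = 0.00404), C9 (0.90, adjusted p = 0.00548), C4b (0.53, adjusted p = 0.00672), Mbl2 (0.53, adjusted p = 0.0275) and Serping1 (0.35, adjusted p = 0.047). Limma voom called Hc (0.71, adjusted p = 0.0374) and C4b (0.60, adjusted p = 0.0493), which is 4.65% beside 0.111% of all genes. Without LKO chow libraries 1 and 2 edgeR called 14 of 43 (32.6%), beside 8.61% of all genes, and without libraries 3 and 4 none. So for Hc, C9 and C4b, which fell on chow alone, the difference between diets depended on the tool and the libraries, and for C8a it was 0.16 (SE 0.29, adjusted p = 0.876).

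Other complement genes, from a list of 21 tested that are not among the 44, showed 2 rises and 6 falls on chow (38.1%). On HFD there were 3 of each (28.6%). Of all genes 24.7% were called on chow and 17.9% on HFD. There were 2 rises and 4 falls on chow without LKO chow libraries 3 and 4, beside 16.2% of all genes. The factor H-related genes Cfhr4 and Cfhr2 fell on both diets, Cfhr4 by 1.41 on the log2 scale on chow (SE 0.11, adjusted p = 8.26e-08) and by 0.99 on HFD (adjusted p = 5.37e-06). Cfhr2 fell by 1.01 (adjusted p = 2.12e-07) and 0.69 (adjusted p = 2.01e-05). These are close copies, so reads may be split between them. Susd4, a membrane inhibitor of complement, rose on chow (log2 fold change 2.94, SE 0.39, adjusted p = 3.62e-05) and on HFD (2.38, adjusted p = 2.53e-04), as did Cd46, a membrane cofactor of factor I (1.20, adjusted p = 1.08e-04 and 1.32, adjusted p = 6.94e-05). Of 8 complement receptor genes, Lrp1 fell on chow (-0.49, adjusted p = 0.0416), and no other was called there and none on HFD. That is 12.5% on chow beside 24.7% of all genes, and 0% on HFD beside 17.9%. None of the 8 was called on chow without LKO chow libraries 3 and 4, beside 16.2% of all genes. Without libraries 1 and 2 there was 1, beside 34.3%.

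A list of 27 further clotting and fibrinolysis genes held 3 rises and 6 falls on chow (33.3%), beside 24.7% of all genes. On HFD it held 4 of each (29.6%), beside 17.9%. The chow count was 2 of each without LKO chow libraries 3 and 4, beside 16.2% of all genes. It was 4 rises and 6 falls without libraries 1 and 2, beside 34.3%. Serpine2, protease nexin, a thrombin inhibitor of tissues, rose on chow (log2 fold change 2.69, SE 0.27, adjusted p = 2.77e-06) and on HFD (2.89, adjusted p = 2.04e-06). Hrg, a histidine-rich plasma protein that binds heparin and plasminogen, rose on both diets (0.54, adjusted p = 0.00612 and 0.70, adjusted p = 0.00111). Hgfac, the activator of hepatocyte growth factor, fell on both (-0.79, adjusted p = 2.17e-04 and -0.69, adjusted p = 9.02e-04). Lman1, which with Mcfd2 carries factors V and VIII out of the endoplasmic reticulum, fell on chow (-0.47, adjusted p = 0.00259). Factors II, VII, IX and X and proteins C and S need vitamin K. Of 7 genes of its cycle and of carboxylation, Prrg4 included, 2 rose and 2 fell on chow (57.1%, beside 24.7% of all genes). On HFD 2 rose and 1 fell (42.9%, beside 17.9%). On chow 1 rose and 1 fell without LKO chow libraries 3 and 4, beside 16.2% of all genes. Vkorc1, the reductase that warfarin inhibits, fell on both diets (-0.32, adjusted p = 0.036 and -0.50, adjusted p = 0.00321), and Ggcx, the carboxylase itself, fell on chow (-0.32, adjusted p = 0.0332). Prrg4, a transmembrane protein with a carboxylated domain, rose on both (3.32, adjusted p = 1.01e-04 and 3.25, adjusted p = 4.26e-05).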

How the data were processed

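The authors deposited unnormalised values for each gene symbol, which are estimated counts by their range (51.05% are whole within 1e-06). The submitters' processing notes name mm10, Bowtie2 and DESeq2, and the counting tool and annotation are not given in the sources used here. A second table holds the same values for 35712 genes, after its chow columns were moved up by 1 row (15118 of 15119 shared genes then equal). It supplied Cfd and genes at 0 in some library.

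Counts were rounded and tested with edgeR 4.0.16 in R 4.3.3 (filterByExpr, TMM, robust quasi-likelihood fit, 1 mean per group over all 16 libraries, 2-sided). Calls needed an adjusted p under 0.05 (Benjamini-Hochberg, 14434 genes). CPM are TMM-scaled, and counts of Cfd, Ppbp, Gp9, Gp1bb and fat cell genes are unscaled. TPM used merged exon lengths of GENCODE M21 (14532 of 15119 genes matched). Scripts were tested on simulated data. Alternatives used DESeq2 1.42.0, limma 3.58.1, other scalings and filters, a replicate block and left-out libraries.

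The members and gene lists were chosen with earlier results of these data known. Genes are given library by library where called with a change of at least 1.5-fold, with C3, F2, Fga, Plg and Serpinc1 added by rule. Other members with such values were chosen after their values were seen. Up to 4 called genes per further list are named by lowest p. Hepatocyte, platelet and fat cell genes with values were chosen after their values were seen.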

Additional observations from a re-analysis of the deposited data

Results flagged for a closer look

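In 11 of 176 gene and group combinations, a single library lay far from the other 3 of its group, by Dixon's test at the 95% level, where chance gives about 1 in 20. For C1qb, WT chow library 2 read 69.7 CPM and the others 35.6 to 36.2 CPM, and for Cfp the same library read 54.1 CPM beside 22.8 to 26.9 CPM. Cfp in LKO HFD library 4 read 66.5 CPM beside 31.4 to 34.2 CPM, and Fgb there read 3325 CPM beside 2579 to 2691 CPM. The macrophage marker sum was the highest of its group in both libraries, at 758 and 857 CPM.

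C8a in LKO chow library 2 read 386 CPM beside 257 to 262 CPM. F5 in WT chow library 3 read 658 CPM beside 560 to 563 CPM. Serpind1 in WT chow library 2 was low, at 489 CPM beside 590 to 602 CPM, and Serpinf2 in WT chow library 1 was high, at 944 CPM beside 783 to 800 CPM. Proc in LKO HFD library 1 read 369 CPM beside 342 to 344 CPM. Cfd, on the second table's unscaled CPM, read 2.11 CPM in LKO chow library 3 beside 0.0398 to 0.157 CPM, and 1.62 CPM in WT chow library 3, where the other 3 libraries were at 0.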

How the results depend on the processing

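Of 47 calls of a member in a comparison, 24 held in all of up to 27 alternatives and none changed direction. The number of members called on chow was 25, beside 24.7% of all genes. It moved to 16 in the chow groups alone (beside 15.4%) and without LKO chow libraries 3 and 4 (beside 16.2%). Leaving out single libraries gave 20 to 27 on chow, where 2698 to 3919 of all genes were called. On HFD it gave 11 to 14, where 1977 to 2833 of all genes were called. On HFD limma voom gave 10 rises and 10 falls (46.5%), beside 31.3% of all genes. The HFD groups alone gave 16 (37.2%), beside 25.7%. HFD against chow in WT had 6 calls, and 13 with DESeq2 and 10 with limma voom (beside 4.87% and 3.36% of all genes). Without LKO chow libraries 1 and 2 there were 10 (beside 4.21%). A replicate block gave 3 (beside 1.54%) and the WT groups alone 2 (beside 1.8%). Runs without single libraries gave 1 to 7, where 155 to 359 of all genes were called. HFD against chow in LKO had 2, and 16 both with limma voom (beside 14.2%) and without LKO chow libraries 1 and 2 (beside 18.9%). DESeq2 gave 3 (beside 5.89%). A replicate block gave 1 (beside 1.6%), as did the LKO groups alone (beside 1.33%). So did the fit without LKO chow libraries 3 and 4 (beside 1.22%). Without single libraries there were 1 to 3, where 111 to 656 of all genes were called. The interaction had 0, and 5 with DESeq2 (beside 0.456%) and 2 with limma voom (beside 0.111%). It had 14 without LKO chow libraries 1 and 2 (beside 8.61%). Without any single library it had 0, where 0 to 9 of all genes were called. The cause of these changes was not tested. The interaction has no fit of fewer groups. Of 24 correlations between same-numbered libraries, 5 exceeded 0.1 (median -0.018, range -0.278 to 0.318). Differently numbered libraries were not compared, so this check cannot settle whether replicate numbers pair libraries. With the replicate block, 25 members were called on chow (58.1%, beside 22.6% of all genes) and 13 on HFD (30.2%, beside 16.1%). It called 3 for diet in WT (6.98%, beside 1.54%) and 1 for diet in LKO (2.33%, beside 1.6%). For the interaction it called 0, beside 0% of all genes. Without the fibrinogen chains the members took 3.36% of the library in WT on chow, 2.71% in LKO on chow, 2.67% in WT on HFD and 2.73% in LKO on HFD, against 4.50%, 3.56%, 3.49% and 3.54% with them, and scaling by the plain library total put WT on chow at 4.29%. The alternatives without a pair of LKO chow libraries were chosen after seeing the data. So were those for Cfd, for the further gene lists and for the no-overlap counts.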

Other observations

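Acute phase proteins outside the 44 genes, which the liver releases in inflammation, fell in 7 and rose in 1 of 19 on chow (edgeR). On HFD they fell in 2 and rose in 1. That is 42.1% beside 24.7% of all genes on chow, and 15.8% beside 17.9% on HFD. On chow 5 fell and 1 rose without LKO chow libraries 3 and 4, beside 16.2% of all genes. Without libraries 1 and 2, 6 fell and 0 rose, beside 34.3%. Their median log2 fold change was -0.40 on chow, beside 0.02 over all genes. Lbp, which binds bacterial lipopolysaccharide, fell on both diets (-1.27, adjusted p = 1.38e-05 and -0.92, adjusted p = 3.94e-04). The plasma glycoprotein Orm1 fell on chow (-1.10, adjusted p = 8.86e-05), as did the pentraxin Apcs (-0.59, adjusted p = 0.00146) and Itih4, an inter-alpha-trypsin inhibitor heavy chain (-0.77, adjusted p = 0.0017). A related heavy chain, Itih3, rose on HFD (1.11, adjusted p = 5.56e-05).

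Among 16 transcription factors and IL-6 signalling genes, 2 rose and 3 fell on chow (31.2%, beside 24.7% of all genes). On HFD 1 fell (6.25%, beside 17.9%). On chow 1 rose and 1 fell without LKO chow libraries 3 and 4, beside 16.2% of all genes. Foxa3 and Foxa1, forkhead factors of hepatocytes, rose on chow (0.82, adjusted p = 0.00353 and 0.55, adjusted p = 0.00721). Cebpa (-0.34, adjusted p = 0.0174) and Stat3 (-0.60, adjusted p = 0.0368) fell on chow together with Hnf4a, and Nfkb1 fell on HFD (-0.31, adjusted p = 0.0382).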
